A study of Danio rerio with 20 samples.

Results

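Sapje-like and sapje are dystrophin-mutant zebrafish lines used as models of Duchenne muscular dystrophy, and here they were set directly against each other. The comparison took every sample whose title names sapje-like or sapje fish, which gave 10 of the 20 samples of the series. Per group these were 2 sapje and 2 sapje-like samples at 5 days post fertilisation (dpf) and 3 sapje and 3 sapje-like samples at 30 dpf. All fish, mutants and wild types alike, were of the TL strain and were kept in fish water on a shrimp diet, and RNA came from whole fish, 10 per cohort. Neither the mutant alleles nor the number of mutated copies is given in the sources used here. Sapje had its own wild types, named SW, and sapje-like had others, named SLW, so among the mutants the line and the cohort are the same split and cannot be told apart. The 10 wild-type samples (2 SW and 2 SLW at 5 dpf, 3 SW and 3 SLW at 30 dpf) therefore stand beside the mutants. The labels do not say that the samples of a group were separate pools of fish, so the p-values measure only the spread between these samples, which may be technical.

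Dystrophin ties the actin cytoskeleton of a muscle fibre to the matrix around it, and fibres that lack it tear, are invaded by immune cells and are partly replaced by scar. A microRNA is a short RNA that lowers the output of messenger RNAs that pair with its seed, the bases from position 2 to position 8, so microRNAs with a common seed are treated as a family. Many are typical of a tissue, so in RNA from a whole fish a level can move because a tissue holds fewer cells or because each cell holds less of the RNA, and these cannot be told apart.

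Each sample was read as 1 dye channel of a microRNA array with 219 mature zebrafish probes in 12 spots each. Of these, 161 were above background in at least 2 samples of some mutant group and were tested, and the 58 others were left out. The mutant samples had 105 to 164 probes above background, with 105 in sapje-like replicate 3 at 30 dpf and at least 139 in each other. The brightest probe of a sample read 22200 to 44816. Levels are normalised log2 intensities, which order samples for 1 probe and do not compare probes with each other. Differences are sapje-like minus sapje on the log2 scale, with standard errors (SE) from limma and p-values adjusted over the 161 probes by the method of Benjamini and Hochberg. Samples of the same line and age correlated at 0.919 to 0.990 over the tested probes. The range was 0.875 to 0.981 for the other line at the same age and 0.673 to 0.834 for the other age. Samples did not always sort by line. Sapje replicate 1 at 30 dpf correlated at 0.981, 0.970 and 0.911 with sapje-like replicates 1, 2 and 3, and at 0.951 with each other sapje sample. At 5 dpf sapje-like replicate 2 correlated at 0.981 with sapje replicate 2 and at 0.977 with sapje-like replicate 1. Tissue markers of muscle, liver, gut, pancreas, nerve, skin and vessels were measured, as were miR-451 of red cells and miR-150 and miR-223 of immune cells. miR-144 of red cells, miR-142a-3p of blood cells and miR-219 of the nervous system were left out as too dim.

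The microRNAs that carry the differences are shown first, as the deposited files give them, 5′ to 3′ and with the seed in capitals. The miR-430 family, known for clearing maternal transcripts from the early zebrafish embryo, had 5 probes on the array, and they are printed to show how close the members are:
miR-430a: uAAGUGCUauuuguugggguag
miR-430b: aAAGUGCUaucaaguugggguag
miR-430c: uAAGUGCUucucuuugggguag
miR-430i: uAAGUGCUauuuguuggcguag
miR-430j: aAAGUGCUaucaaauuggggua
All 5 have the same seed. Aligned from the 5′ end, miR-430a differs from miR-430i at 1 base of 22 and from miR-430c at 4, and miR-430b differs from miR-430j at 1 base of 22, so probes within these pairs could take up each other's RNA. In RefSeq's annotation of the GRCz12tu assembly, used for neighbours only, a mir430a gene and a mir430b gene followed each other among the microRNA genes of a chromosome 15 times, mir430a and mir430c 14 times, and mir430b and mir430c 10 times. The probes with the smallest p between the lines at 30 dpf, miR-146a, miR-223 and miR-499, are printed with their closest relative on the array, where they have one:
miR-146a: uGAGAACUgaauuccauagaugg
miR-146b: uGAGAACUgaauuccaagggug
miR-223: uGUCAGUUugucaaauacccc
miR-499: uUAAGACUugcagugauguuua
miR-146a and miR-146b have a common seed and differ at 3 of 22 bases, whereas no other probe on the array has the seed of miR-223 or that of miR-499.

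At 5 dpf, members of the miR-430 family were higher in sapje-like than in sapje, and no other probe passed the test. miR-430a was at 7.47 and 7.60 in the 2 sapje samples and at 9.21 and 9.30 in the 2 sapje-like samples. miR-430b was at 8.39 and 8.32 in sapje and at 9.64 and 10.13 in sapje-like. Both sapje-like samples lay above both sapje samples for each probe, with a gap wider than the spread within either line. The difference was 1.72 ± 0.16 (SE, n = 2 against 2, 3.30-fold, 95% interval 1.34 to 2.10) for miR-430a, with a limma adjusted p of 0.00128. For miR-430b it was 1.53 ± 0.19 (SE, n = 2 against 2, 2.89-fold, 95% interval 1.08 to 1.98), with a limma adjusted p of 0.00489. The SEs, intervals and p-values of the miR-430 probes come from a fit of all 10 mutant samples with a common spread per probe. At 30 dpf none of these probes was above background in a mutant sample, so they do not measure the 5 dpf spread alone. With each age fitted alone neither call was kept. Of the 161 probes tested these 2 rose, a share of 1.24%, and 0 fell. In limma 14 probes, or 8.7%, had an unadjusted p under 0.05.

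The remaining members of the family lay the same way without passing the test. miR-430c was at 7.86 and 7.90 in sapje and at 8.59 and 8.75 in sapje-like, a difference of 0.79 ± 0.16 (limma adjusted p = 0.0577). miR-430j was at 6.59 and 6.46 in sapje, not above background in either sample, and at 7.32 and 7.66 in sapje-like, where it was above background in both. Set against the dimmest probe above background in each sapje sample, miR-430j was at least 1.69-fold higher in sapje-like, and its fitted difference was 0.97 ± 0.19 (limma adjusted p = 0.0517). miR-430i was not tested, since it did not clear background in 2 samples of any mutant group, and it read 6.51 and 6.60 in sapje and 6.63 and 6.60 in sapje-like. The 4 tested members cleared the filter on dim probes through their 5 dpf samples, and miR-430j through the sapje-like samples alone.

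The wild types of the cohorts were apart in the same direction for most of these probes. miR-430a was at 8.94 and 8.06 in wild type SW and at 10.20 and 9.17 in wild type SLW, so SLW was higher by 1.18 ± 0.27 (limma adjusted p = 0.0323). miR-430j, not above background in either SW sample, was higher in SLW by a fitted 1.24 ± 0.22 (limma adjusted p = 0.00577), and miR-430b differed by 0.65 ± 0.18 (limma adjusted p = 0.0736). miR-430c did not follow, with 8.32 and 8.54 in SW and 7.53 and 8.99 in SLW (-0.17 ± 0.30, limma adjusted p = 0.882). These SEs and p-values come from the fit of all 20 samples with a common spread per probe. It includes the older samples, where these probes lay near the bottom of the scale. The spread of the younger wild types alone is therefore not measured, and these p-values are not read as calls. For miR-430a the gap between SW (8.94) and SLW (9.17) was narrower than the spread within either. Each sapje sample lay below each wild type SW sample for miR-430a, miR-430b and miR-430c, whereas the sapje-like samples lay within the wild type SLW range for miR-430a and miR-430c and on either side of it for miR-430b. Whether the mutants differed by more than the wild types did was tested over all 20 samples. That excess was 0.54 ± 0.38 for miR-430a (limma adjusted p = 0.995), 0.88 ± 0.26 for miR-430b (0.356), 0.96 ± 0.42 for miR-430c (0.833) and -0.27 ± 0.31 for miR-430j (0.995), and it passed for 0 of the 4. The SEs and p-values of the excess have the same limit.

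**Figure D1:**
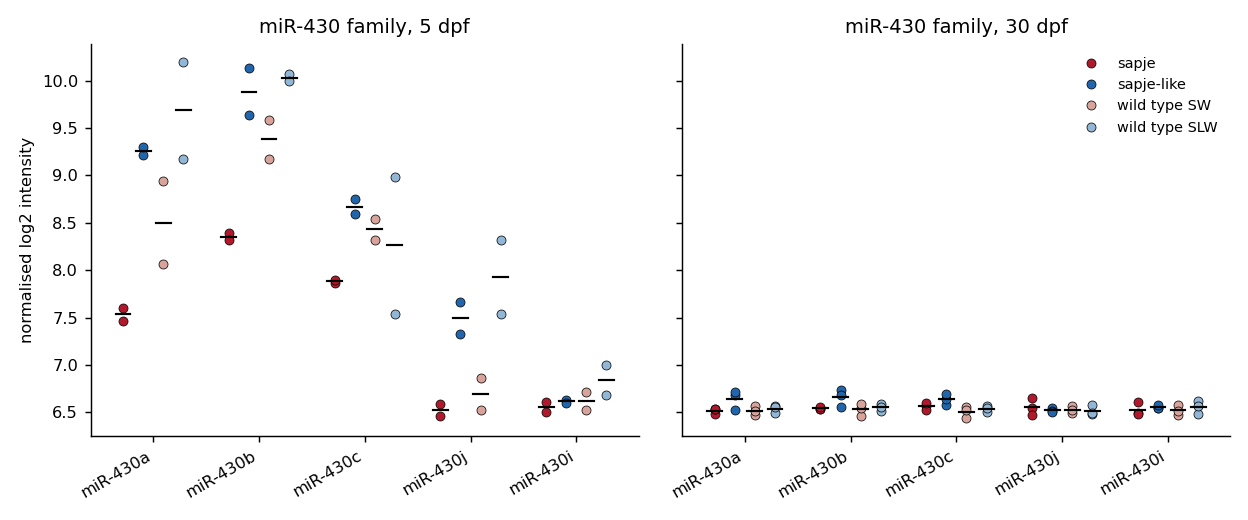
Normalised log2 intensity of the 5 miR-430 probes at 5 dpf (left) and 30 dpf (right); each point is a sample, each bar a group mean, with dark points for the mutants and pale points for the wild types of their cohorts. At 5 dpf both sapje samples lie below both sapje-like and both wild type SW samples for miR-430a, miR-430b and miR-430c, while 1 wild type SLW sample lies below them for miR-430c (7.53), and at 30 dpf all values lie between 6.44 and 6.74, where no mutant sample was above background.

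The miR-430 calls depended on how the data were scaled, on how the ages were fitted and on which samples were used, while their direction did not. miR-430a was higher in sapje-like by 1.54 to 2.85 over 14 alternative settings, and its call ended with median scaling (1.83, limma adjusted p = 0.0905), with subtraction of the blank-spot median (2.49, 0.403) and with each age fitted alone (1.72, 0.144). The miR-430b call ended in these 3 settings too, with cyclic loess (1.95, limma adjusted p = 0.0731), in the authors' deposited table (2.26, 0.184) and without sapje replicate 2 (1.41, 0.115). The blank spots used to set the background limit were chosen after seeing the data: with the 1032 spots named empty alone, 163 probes were tested and 4 passed, miR-430c and miR-430j included (limma adjusted p = 0.0440 for each).

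At 30 dpf the family was near the bottom of the scale in every sample. Over the 12 samples of that age the 5 probes read 6.44 to 6.74. Wild type SLW replicate 5 alone was above background, for miR-430b and miR-430i. None of the 5 probes was above background in any of the 6 mutant samples, so a difference between the lines at that age was not measured. The probes were tested because they were bright at 5 dpf. The test of a change in the difference with age passed 2 of the 161 probes, 0 higher and 2 lower at 30 dpf than at 5 dpf (1.24%), and 24 (14.9%) had an unadjusted p under 0.05. These 2 were miR-430a and miR-430b, for which the test sets the 5 dpf difference against unmeasured values, and no size of the change is read from it. Both calls were also lost with the replicate block (limma adjusted p = 0.0792 and 0.101), the blank-spot median subtracted, the authors' deposited table, median scaling or cyclic loess, and without either sapje sample at 5 dpf. The miR-430a call also ended without sapje replicate 3 or sapje-like replicate 2 at 30 dpf. That of miR-430b ended with quantile normalisation over the mutant samples and was kept in 2 of 10 fits with 1 sample left out, those without sapje-like replicate 1 at 5 dpf and without sapje replicate 1 at 30 dpf.

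Outside the miR-430 family, the next probes in order of p at 5 dpf did not pass. miR-124, the main microRNA of neurons, was at 8.75 and 8.65 in sapje and at 7.51 and 8.26 in sapje-like (-0.82 ± 0.23, limma adjusted p = 0.283). miR-34, a target of the p53 stress response in mammals, was at 8.79 in each sapje sample and at 7.63 and 8.35 in sapje-like (-0.80 ± 0.26, 0.367). miR-138, of the nervous system, was lower by 0.68 ± 0.25 (limma adjusted p = 0.513) with 8.04 and 8.29 against 7.07 and 7.90. In each of these 3 the lines did not overlap and sapje-like replicate 1 was the lowest sample. At this age groups of 2 did not overlap for 31 probes with sapje-like higher (19.3%) and for 35 with sapje-like lower (21.7%), so that a gap between the lines was common. miR-730 (-0.57 ± 0.22), miR-454b (0.97 ± 0.37), miR-456 (-0.68 ± 0.27) and miR-203b (0.54 ± 0.23), each at a limma adjusted p of 0.513, and miR-21 (-0.52 ± 0.17, 0.367), completed the 12 probes with the smallest p. Without sapje-like replicate 2, miR-124 passed as well, at -1.20 (limma adjusted p = 0.0244).

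At 30 dpf, miR-146a, which dampens innate immune signalling in mammals, was lower in sapje-like than in sapje and was the 1 probe of 161 that passed. It was at 11.43, 9.85 and 11.29 in sapje replicates 1, 2 and 3 and at 9.04, 8.59 and 8.51 in sapje-like replicates 1, 2 and 3. All 3 sapje samples lay above all 3 sapje-like samples, the nearest being sapje replicate 2. It fell by 2.14 ± 0.33 on the log2 scale (SE, n = 3 against 3, a 4.42-fold difference, 95% interval -2.90 to -1.38), with a limma adjusted p of 0.0350. Thus 0 probes rose and 1 fell, a share of 0.621%, while 25 probes (15.5%) had an unadjusted p under 0.05. All 6 wild-type samples lay below sapje replicates 1 and 3, at 9.80, 8.86 and 8.73 in SW and at 8.04, 8.65 and 10.27 in SLW (-0.15 ± 0.51, limma adjusted p = 0.977), and their range took in all 3 sapje-like samples and sapje replicate 2. The excess of the mutant difference over the wild-type difference was -1.998 ± 0.73 and did not pass (limma adjusted p = 0.666).

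The miR-146a difference kept its sign in every setting tried, from -2.41 to -1.72 over 15 alternatives, but its call was not stable. It was lost with cyclic loess (-1.75, limma adjusted p = 0.0561), quantile normalisation within each age (-1.90, 0.0591), the authors' deposited table (-2.11, 0.107), no filter on dim probes (0.129), no dye term (0.0562), all 20 samples in the fit (0.0755), the replicate block (0.168) and each age fitted alone (0.341). It also ended without sapje replicate 3 (-2.03, limma adjusted p = 0.196) or without sapje-like replicate 1 (-2.20, 0.0702), 2 (-2.36, 0.0866) or 3 (-1.92, 0.115). At 5 dpf the lines did not differ detectably in miR-146a, at 7.29 and 7.34 in sapje and 7.86 and 7.02 in sapje-like (0.12 ± 0.40, limma adjusted p = 0.997). The change in the difference with age was -2.27 ± 0.52 (limma adjusted p = 0.139).

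Its close relative miR-146b did not separate the lines. At 30 dpf it was at 10.81, 10.70 and 11.52 in sapje and at 9.68, 10.64 and 11.06 in sapje-like, and the groups overlapped (-0.55 ± 0.40, limma adjusted p = 0.630). Whether miR-146a and miR-146b differed from each other in this was not tested. miR-223, the microRNA of neutrophils and other myeloid cells, was at 9.55, 9.74 and 10.45 in sapje and at 8.65, 8.44 and 7.75 in sapje-like. Its groups did not overlap, though miR-223 was not above background in sapje-like replicate 3. The difference of -1.64 ± 0.33 missed the threshold (limma adjusted p = 0.110). In the fit of all 20 samples miR-223 passed in place of miR-146a (limma adjusted p = 0.0247). miR-150, typical of mature lymphocytes, lay the other way, at 8.09, 7.86 and 8.15 in sapje and at 8.39, 8.65 and 9.50 in sapje-like (0.81 ± 0.29, limma adjusted p = 0.227). Of the 8 immune probes 5 were tested, and at 30 dpf 0 rose and 1 fell, with a median difference of -0.55 and a range from -2.14 to 0.81, against a median of -0.02 over all probes.

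**Figure D2:**
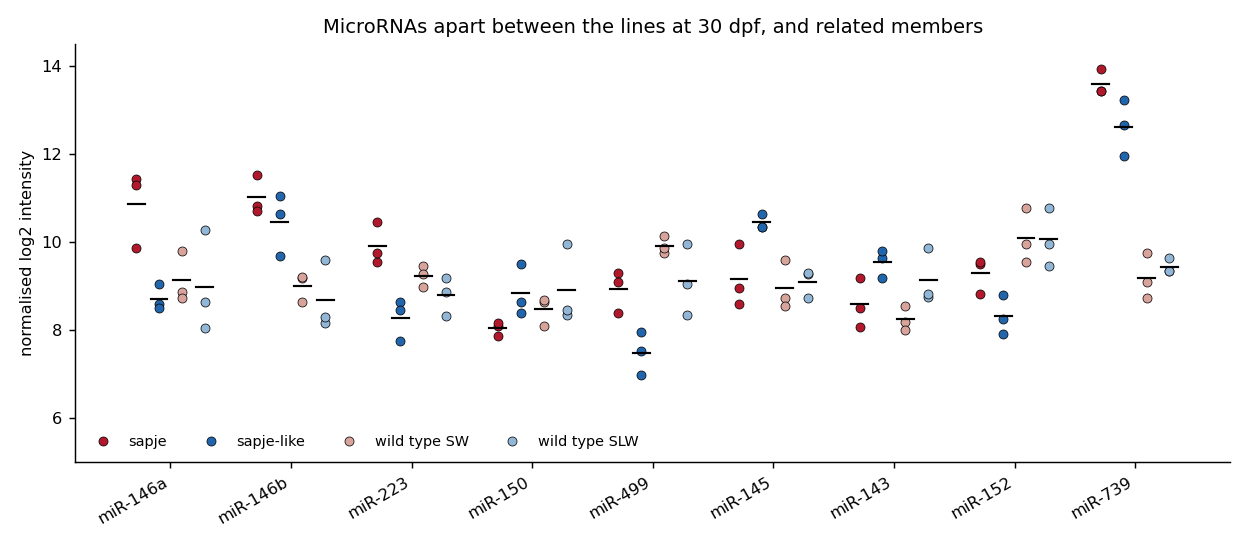
Normalised log2 intensity at 30 dpf of immune, muscle and smooth muscle probes and of miR-152 and miR-739; each point is a sample, each bar a group mean, with dark points for the mutants and pale points for the wild types. The 3 sapje samples lie above the 3 sapje-like samples for miR-146a, miR-223, miR-499, miR-152 and miR-739 and below them for miR-145 and miR-150.

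Among striated muscle microRNAs, miR-499, which is encoded within a slow myosin gene, was the member furthest apart at 30 dpf. It was at 8.39, 9.30 and 9.09 in sapje and at 7.96, 7.53 and 6.97 in sapje-like, and it was above background in 2 of the 3 sapje-like samples. The groups did not overlap, and the difference was -1.44 ± 0.33 (limma adjusted p = 0.143). The wild types lay higher than the mutants for the most part, at 10.13, 9.74 and 9.85 in SW and at 9.96, 9.04 and 8.35 in SLW. At 5 dpf miR-499 differed by 0.11 ± 0.40 (limma adjusted p = 0.997), with a sign that turned with median scaling.

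The other muscle probes are expressed in fast and slow fibres, miR-1 and the miR-133 family in heart as well, and miR-206 chiefly in skeletal muscle. At 30 dpf miR-1 differed by -0.05 ± 0.26, miR-133a by 0.16 ± 0.39, miR-133b by 0.14 ± 0.40, miR-133c by -0.66 ± 0.59 and miR-206 by 0.12 ± 0.32, with limma adjusted p-values of 0.656 to 0.953. For miR-1 the sign turned with cyclic loess (0.73) and median scaling (0.96), and also in the authors' deposited table (0.34). At 5 dpf miR-133a differed by -0.48 ± 0.48, miR-133b by -0.40 ± 0.49, miR-206 by -0.36 ± 0.40 and miR-133c by 0.27 ± 0.72, and the signs of all 4 turned when 1 sample was left out, as did those of miR-1, miR-133a, miR-133b and miR-206 at 30 dpf. Over the 6 muscle probes 0 rose and 0 fell at either age. Their median difference was -0.25 at 5 dpf, where 2 of 6 were positive, and 0.03 at 30 dpf, where 3 of 6 were. The mean level of the list at 30 dpf was 11.09 to 11.84 in sapje and 10.95 to 11.48 in sapje-like.

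The test of the mutant difference minus the wild-type difference passed 1 probe at 5 dpf, miR-1. The mutant lines were close in it, at 13.43 and 13.22 in sapje and 13.43 and 12.94 in sapje-like (-0.14 ± 0.31, 95% interval -0.87 to 0.59, limma adjusted p = 0.997, sign turned with cyclic loess). The wild types were apart, at 11.60 and 12.09 in SW and at 14.30 and 13.94 in SLW (2.27 ± 0.32, limma adjusted p = 0.000779). The higher of these values are ranks near the top of the array, which quantile normalisation replaces with common numbers. The SE and p of miR-1 therefore do not fully measure how far the samples vary. The mutant difference minus the wild-type difference was -2.41 ± 0.45 (n = 2 in each of 4 groups, limma adjusted p = 0.0158), so 0 probes were higher and 1 lower (0.621%), with 9 (5.59%) at an unadjusted p under 0.05. Over 12 alternatives the value ran from -2.63 to -2.20, and the call ended with cyclic loess, median scaling, quantile normalisation within each age, subtraction of the blank-spot median, the authors' deposited table and each age fitted alone. It also ended when either sapje sample, replicate 1 of either wild type, or sapje-like replicate 2 was left out. At 30 dpf limma passed 0 probes in this test, and 9 (5.59%) had an unadjusted p under 0.05.

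**Figure D3:**
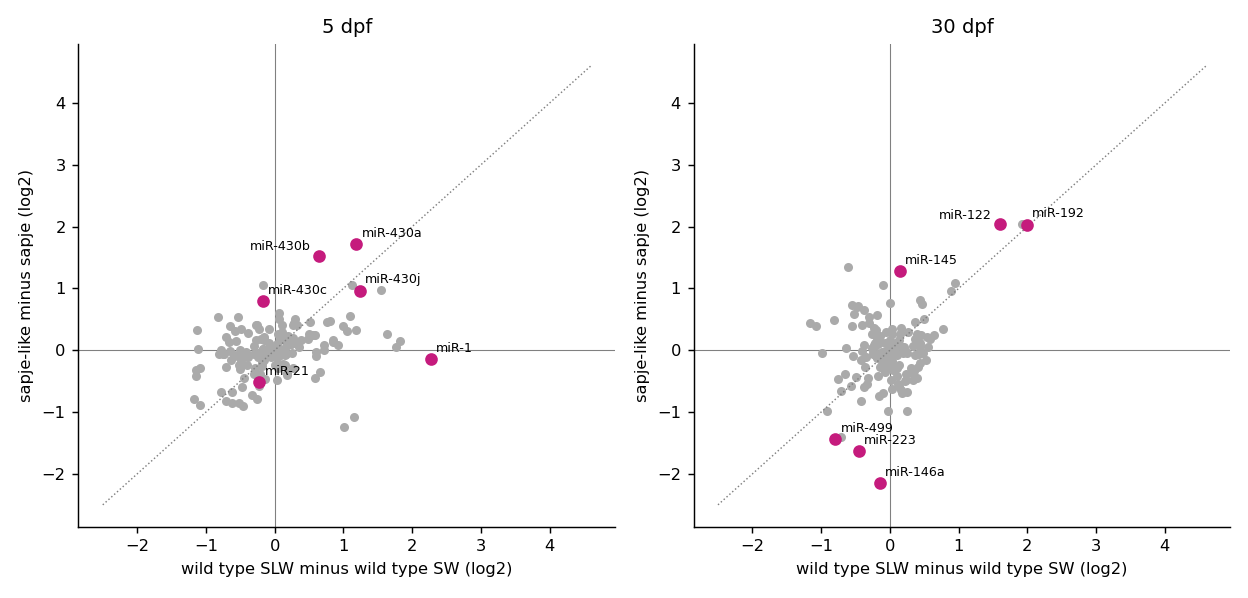
Difference between the mutant lines (vertical, log2) against the difference between the wild types of the same cohorts (horizontal, log2) at 5 dpf (left) and 30 dpf (right); each point is 1 of 161 probes, named probes are in pink, and the dotted line marks equal differences. miR-1 at 5 dpf lies at 2.27 across and -0.14 up, and miR-146a at 30 dpf at -0.15 across and -2.14 up, whereas miR-122 and miR-192 at 30 dpf lie near the dotted line through wild type SLW replicate 8 alone, without which their horizontal values are -0.14 and -0.34.

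Over all 161 probes the mutant and the wild-type difference correlated at Pearson's r = 0.35 (Spearman's rho = 0.37) at 5 dpf and at r = 0.39 (rho = 0.12) at 30 dpf. These are descriptions across probes, which are not independent replicates, and each array held a mutant and a wild type of the same cohort, as inferred from spot patterns. The value at 30 dpf rested on wild type SLW replicate 8, without which r was 0.03 and rho -0.03, a setting chosen after seeing the data. At 5 dpf 66.5% of the probes had the same sign in mutants and wild types, and at 30 dpf 55.9%, or 50.9% without that sample.

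Gut and liver microRNAs were the probes with the widest gaps of group means at 30 dpf besides miR-146a, and 1 sapje sample decided how they compared. miR-122, the main microRNA of liver cells, was at 12.80, 11.10 and 9.64 in sapje replicates 1, 2 and 3 and at 12.94, 13.08 and 13.64 in sapje-like. miR-192, of gut, liver and kidney epithelium, was at 14.30, 11.52 and 10.81 in sapje and at 14.65, 14.65 and 13.43 in sapje-like. miR-194a, whose gene lies next to that of miR-192 in the RefSeq annotation, was at 12.49, 8.86 and 9.27 in sapje and at 12.80, 12.22 and 11.73 in sapje-like. In all 3, sapje replicate 1 lay near the sapje-like samples and the other 2 sapje samples lay below them. The differences were 2.04 ± 0.75 for miR-122, 2.03 ± 0.84 for miR-192 and 2.04 ± 0.81 for miR-194a, with limma adjusted p-values of 0.227, 0.272 and 0.257. miR-194b differed by 0.51 ± 0.32 (0.547).

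Without sapje replicate 1, 11 of the 161 probes passed at 30 dpf, 7 higher and 4 lower in sapje-like, against 1 with it. That fit left sapje replicates 2 and 3. The sample left out was the sapje sample that correlated most with the sapje-like samples. Gaps can widen through its omission alone, so the 11 are not read as calls. Higher were miR-122 (2.94, limma adjusted p = 0.0160), miR-192 (3.15, 0.00334), miR-194a (3.13, 0.00233), miR-145 (1.65, 0.0160) and miR-143 (1.24, 0.0408), with miR-217 of the pancreas and miR-459*, named here because they were in that count of 11. Lower were miR-146a (-1.95, 0.0204), miR-223 (-1.86, 0.0204), miR-499 (-1.72, 0.0204) and miR-152 (-1.24, 0.0409). Leaving out any of the 5 other samples of this age gave 0 or 1 probes. The mean of the 4 gut and liver probes was 11.91, 9.57 and 9.16 in sapje and 12.16, 11.85 and 11.59 in sapje-like, while the wild types read 7.17 to 7.40 in SW and 7.17, 7.26 and 11.85 in SLW replicates 2, 5 and 8. Wild type SLW minus SW was 1.61 ± 1.09 for miR-122 and 1.99 ± 1.38 for miR-192 (limma adjusted p = 0.720 for each), and -0.14 ± 0.67 and -0.34 ± 0.73 (0.984 for each) without SLW replicate 8. The mean of the pancreas list moved with the gut and liver mean, at 8.06, 7.47 and 7.35 in sapje and 8.00 to 8.14 in sapje-like. Of its 5 tested probes, miR-7a was above background in no mutant sample at 30 dpf and miR-216b in no sapje-like sample. miR-375 was about equal in sapje replicates 1 and 2. The mean of the vessel and smooth muscle list moved likewise, at 10.31, 9.58 and 9.77 against 10.31 to 10.78. The part that the content of gut and liver RNA had in the other differences at 30 dpf was not tested. miR-146a was about equally high in sapje replicate 1 (11.43) and replicate 3 (11.29), whose gut and liver means were 11.91 and 9.16. Sapje replicate 2, with a mean of 9.57, was lower in miR-146a than both. The sapje-like samples, with means of 12.16, 11.85 and 11.59, had the lowest miR-146a of the mutants at 30 dpf. Wild type SLW replicate 8, with a mean of 11.85, had the highest miR-146a of the wild types. Whether miR-146a followed these means was not tested.

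**Figure D4:**
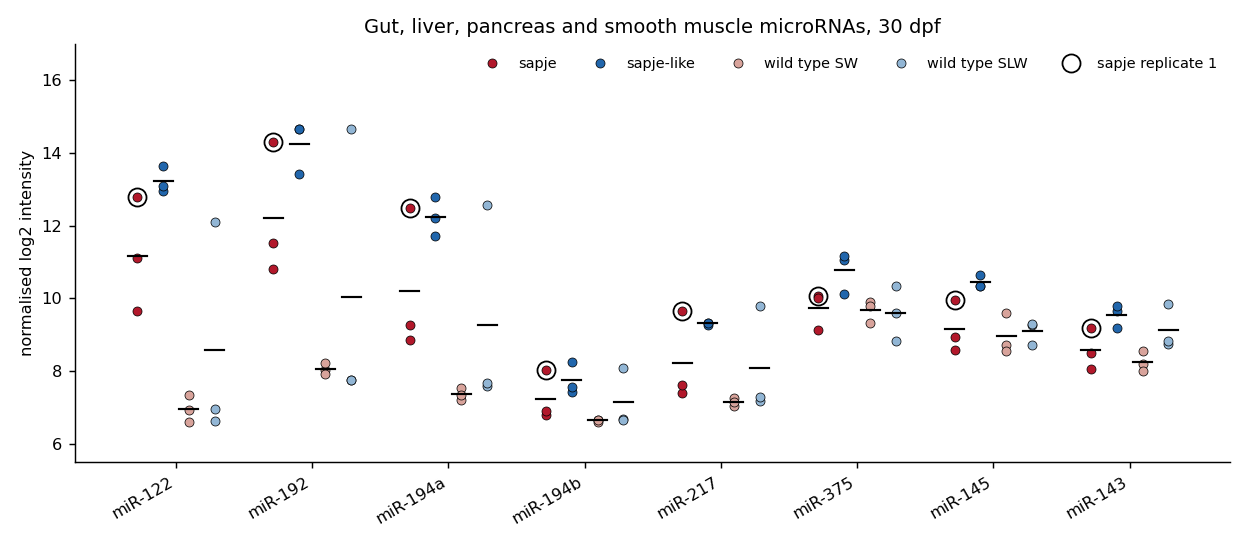
Normalised log2 intensity at 30 dpf of gut, liver, pancreas and smooth muscle microRNAs; each point is a sample, each bar a group mean, and a ring marks sapje replicate 1. The ringed sample lies with the 3 sapje-like samples for miR-122, miR-192, miR-194a and miR-217, and the other 2 sapje samples lie below.

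The same probes lay the other way at 5 dpf. miR-122 was at 9.27 and 9.04 in sapje and at 7.36 and 8.79 in sapje-like, and miR-192 was at 13.64 in each sapje sample and at 12.30 and 12.49 in sapje-like. All 4 gut and liver probes had lower values in sapje-like at that age, and the groups did not overlap for miR-122, miR-192 or miR-194a. Their median difference was -0.99, with 0 of 4 past the test, against 2.04 at 30 dpf, also with 0 of 4. The change with age was 3.12 ± 1.18 for miR-122, 3.27 ± 1.32 for miR-192 and 2.89 ± 1.28 for miR-194a (limma adjusted p = 0.292, 0.292 and 0.305).

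The smooth muscle microRNAs miR-145 and miR-143 followed a like course. miR-126, the other tested probe of the vessel and smooth muscle list, was lower in sapje-like in the fit of both ages (-0.40 ± 0.18, limma adjusted p = 0.666). miR-145, which with miR-143 marks vascular and visceral smooth muscle, was at 9.96, 8.59 and 8.94 in sapje at 30 dpf and at 10.34, 10.34 and 10.64 in sapje-like (1.28 ± 0.34, limma adjusted p = 0.183). miR-143 was at 9.17, 8.06 and 8.51 in sapje and at 9.64, 9.17 and 9.80 in sapje-like (0.96 ± 0.29, 0.183). The groups did not overlap for miR-145 and met at 9.17 for miR-143. At 5 dpf miR-143 differed by -0.85 ± 0.36 (limma adjusted p = 0.513). Its change in the difference with age was 1.81 ± 0.47 and that of miR-145 was 1.81 ± 0.54 (limma adjusted p = 0.141 and 0.192).

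The other leading probes at 30 dpf had limma adjusted p-values of 0.183. miR-739, a microRNA annotated in fish, was at 13.94, 13.43 and 13.43 in sapje and at 12.67, 11.96 and 13.22 in sapje-like (-0.98 ± 0.28), while all 6 wild-type samples of that age lay between 8.73 and 9.74. miR-152 was at 8.82, 9.50 and 9.55 in sapje and at 8.79, 8.26 and 7.90 in sapje-like (-0.98 ± 0.29). miR-20a, of a family tied to cell proliferation, was lower by 0.69 ± 0.21 and miR-26b by 0.69 ± 0.21. Higher in sapje-like were miR-184, of lens and epithelium (0.76 ± 0.23), let-7b, of a family that accumulates as cells differentiate (0.74 ± 0.23), and miR-375, of pancreatic islets (1.05 ± 0.33). Groups of 3 did not overlap for 11 probes with sapje-like higher (6.83%) and for 20 with sapje-like lower (12.4%).

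With both ages in 1 fit, which had age and dye as terms, limma passed 0 of 161 probes, and 13 (8.07%) had an unadjusted p under 0.05. The same comparison with all 20 samples in the fit passed 2 probes, miR-430a (0.92, limma adjusted p = 0.00877) and miR-430b (0.82, 0.00110), neither above background in the mutants at 30 dpf. miR-21, which rises in injured, inflamed and fibrotic tissue, had the smallest p. At 5 dpf it was at 14.30 in each sapje sample and at 13.64 and 13.94 in sapje-like, and at 30 dpf at 14.65 in each sapje sample and at 14.30 in each sapje-like sample. These repeated values are ranks near the top of the array, which quantile normalisation replaces with common numbers. Spread within the groups is largely removed by this. The SE and p of miR-21, at each age and jointly, therefore do not measure how far the samples vary. The same common numbers recur in other bright probes, among them miR-1, miR-192 and miR-739, whose SE and p have this limit in part. The scanner intensities behind the miR-21 values were 21863 and 18318 against 15811 and 16072 at 5 dpf. At 30 dpf they were 28143, 31048 and 32295 against 24740, 17617 and 27088. The lines did not overlap in these intensities, but each sample has its own scale. Its brightest probe read 22200 to 44816 over the mutant samples, so this gap was not read as a difference between the lines. The joint difference was -0.42 ± 0.11 (n = 5 against 5, limma adjusted p = 0.594). It turned to 0.063 with cyclic loess and to 0.065 with median scaling, and at 30 dpf alone from -0.35 ± 0.14 (limma adjusted p = 0.256) to 0.26 and 0.50.

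Of the 161 probes 6 kept the lines apart at each age in the same direction. Gaps at 1 age were common, with 19.3% higher and 21.7% lower at 5 dpf and 6.83% and 12.4% at 30 dpf. Whether the 6 exceed what those shares give by themselves was not tested. miR-21, miR-26b, miR-218b, miR-29a and miR-456 were lower in sapje-like in every pair of samples (5 probes, 3.11%), and miR-375 was higher (1 probe, 0.621%). A further 5 probes (3.11%) did not overlap at either age and lay in opposite directions. In the joint fit miR-456 differed by -0.54 ± 0.17, miR-26b by -0.53 ± 0.17, miR-218b by -0.35 ± 0.14 and miR-375 by 0.70 ± 0.29, each with a limma adjusted p of 0.594. miR-375 was at 7.96 and 8.06 against 8.22 and 8.15 at 5 dpf and at 10.07, 10.00 and 9.13 against 10.13, 11.06 and 11.18 at 30 dpf, so the nearest samples of the lines almost met. miR-29a, a regulator of collagen genes, lay near the background limit throughout, at 6.49 to 6.83 in the 10 mutant samples, and was above it in 0 of 3 sapje-like samples at 30 dpf. miR-218b was not above background in sapje-like replicate 3 at 30 dpf. The remaining probes among the 12 with the smallest p were miR-184 (0.57 ± 0.19), miR-146a (-1.24 ± 0.45), miR-152 (-0.67 ± 0.25), miR-150 (0.56 ± 0.24) and, through their 5 dpf samples, miR-430a, miR-430b and miR-430c, again with a limma adjusted p of 0.594.

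**Figure D5:**
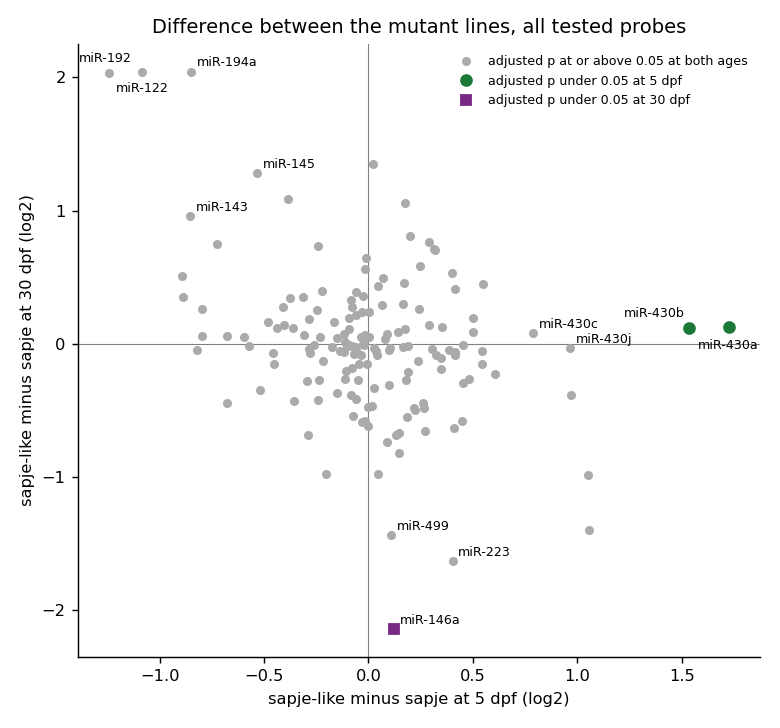
Sapje-like minus sapje at 5 dpf (horizontal, log2) against the same at 30 dpf (vertical, log2); each point is 1 of 161 probes, green circles passed at 5 dpf and the purple square at 30 dpf. The miR-430 probes lie far right at a height near 0, where they were not above background, miR-146a, miR-223 and miR-499 lie low near the vertical axis, and miR-122, miR-192 and miR-194a lie at upper left.

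Across the 161 probes the differences at the 2 ages correlated at r = -0.34 (rho = -0.22), with the same sign in 44.7%. This describes probes measured in different samples that were normalised together. The median size of the difference between the lines was 0.22 at 5 dpf and 0.25 at 30 dpf, against 0.65 in sapje and 0.59 in sapje-like for the difference between the ages.

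The other tissue lists held 0 probes past the test at 5 dpf, and at 30 dpf only miR-146a, which is also in the injury list. The 11 tested probes of that list, known from injured or dystrophic mammalian muscle, had a median difference of 0.03 at 5 dpf (range -0.80 to 0.22) and of -0.33 at 30 dpf (range -2.14 to 0.16, 8 of 11 negative). The 10 let-7 probes had a median of 0.00 at 5 dpf and of 0.42 at 30 dpf, where 7 of 10 were positive. The 6 Hox cluster probes, which lie between the genes that pattern the body axis, had medians of 0.41 and 0.26, with 5 and 6 of 6 positive. At 30 dpf the Hox mean was 8.76, 8.88 and 8.61 in sapje and 8.84, 8.78 and 9.47 in sapje-like. The let-7 mean was 8.62, 9.07 and 8.60 against 8.58, 9.04 and 9.59. In both lists only sapje-like replicate 3, the mutant sample with the fewest probes above background, lay above every sapje sample. The 6 tested nervous system probes, of 11 on the array, had medians of -0.33 and 0.00, and the 8 epithelial probes 0.03 and -0.11. Over all 161 tested probes the median was -0.02 at each age, and 75 differences were positive at 5 dpf and 72 at 30 dpf.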

How the data were processed

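Per the labels' protocols, RNA was extracted from whole fish with the miRVana kit, and a service provider size-selected the small RNA, tailed it with poly(A), and joined a tag for staining with Cy3 or Cy5. The deposited scanner files hold the mean spot intensity of 1 channel with no background removed, per the file headers; no scanner or image software is given in the sources used here. The authors' deposited table holds processed intensity on a linear scale (column medians 95.3 to 144 in the mutants). Its log2 values, with 1 added, correlated at 0.967 to 0.985 with those computed here, so its direction is settled and its scale and centring stay unknown. It served as an alternative.

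From the scanner files, normexp with an offset of 50, log2, the mean over 12 spots and quantile normalisation over 219 mature probes and 20 samples gave the levels. A probe was above background where its mean intensity passed the median of 1048 blank spots by over 3 standard deviations, taken from their median absolute deviation. That blank-spot set was chosen after results with another were seen. The blank-spot median was 349 to 560 in Cy3 and 32.3 to 40.2 in Cy5, and the number of arrays limits the precision. limma 3.58.1 in R 4.3.3 (lmFit, eBayes; two-sided, Benjamini-Hochberg, threshold 0.05) was fitted to the 10 mutant samples as 4 groups plus dye, with 5 residual degrees of freedom, or as line, age and dye, with 6. The mutant difference minus the wild-type difference, and wild-type differences, used all 20 samples as 8 groups plus dye, with 11. The code was tested on simulated data. Each line had replicates 1 and 3 in Cy3 and 2 in Cy5, so dye and replicate number coincide. Which samples shared an array was inferred from spot residuals of 37 probes bright in the median sample, a rule changed after a first one left samples unmatched (r = 0.470 to 0.866).

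The members and lists were chosen with earlier results of these data known. Probes named are those past the threshold, filled up to the 12 smallest p in the first 3 comparisons, and the muscle, gut and liver, and early embryo lists. Other members of the injury list are given by count, median and range, a choice made after counting how many values changed sign. Alternatives changed the scaling, background, filter, dye term, samples and block. Figures used Python 3.11.15 and matplotlib 3.10.9.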

Additional observations from a re-analysis of the deposited data

Results flagged for a closer look

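The differences of 3 probes between groups passed a test of the difference itself. The fitted sapje-like minus sapje difference at 30 dpf minus that at 5 dpf was -1.60 ± 0.21 for miR-430a (limma adjusted p = 0.0130) and -1.42 ± 0.25 for miR-430b (limma adjusted p = 0.0450). Neither probe was above background in any of the 6 mutant samples at 30 dpf, and both were tested because they were bright at 5 dpf, so these values carry over the 5 dpf difference and measure no change with age. The mutant difference minus the wild-type difference at 5 dpf was -2.41 ± 0.45 for miR-1 (limma adjusted p = 0.0158), where wild type SLW was the higher of the wild types in 2 of 2 samples. No cause was tested for any of the 3 probes. The SE and p of miR-1 do not fully measure how far the samples vary, since quantile normalisation gives common numbers to the brightest ranks.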

How the results depend on the processing

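Of 1258 single-probe values under alternatives, 1151 kept their direction and side of the threshold, 55 lost a call, 24 gained one and 28 changed sign. Most of the 1258 belong to probes without a call, which cannot lose one. Sample omission aside, the 5 dpf call was kept in 11 (miR-430a) and 9 (miR-430b) of 14 alternatives. The miR-146a call at 30 dpf was kept in 7 of 15, and that of miR-1 in 6 of 12. For the change with age, the call was kept in 7 (miR-430a) and 6 (miR-430b) of 12. Of 130 counts, 81 stayed within 1.5 times the count reported and 49 did not. Many of the 81 were counts of 0 that stayed 0. These came from both ages together and from the mutant difference minus the wild-type difference at 30 dpf. Sample omission aside, 8 of 15 counts stayed at 5 dpf, 8 of 15 at 30 dpf and 5 of 13 for the change with age. For the mutant difference minus the wild-type difference at 5 dpf, 6 of 12 did. A count could also stay with another probe, as with miR-223 in place of miR-146a at 30 dpf. At 5 dpf, where 2 probes passed, the count was 0 with median scaling, with probes above background in all mutant samples (98 tested, none of the miR-430 family) and with each age fitted alone, 1 with the blank-spot median subtracted, and 4 with no filter, no dye term or the spots named empty alone (the last chosen after seeing the data). At 30 dpf, where 1 passed, it was 0 with cyclic loess, quantile normalisation within each age, the authors' table, no filter, no dye term, the replicate block or each age alone. For both ages it rose from 0 to 2 with all samples in the fit. For the change with age, where 2 passed, it was 0 with cyclic loess, median scaling, the authors' table, probes above background in all mutant samples or the replicate block, 1 with the blank-spot median subtracted or quantile normalisation over the mutants, and 4 with no filter. For mutant minus wild-type difference at 5 dpf, where 1 passed, it was 0 with cyclic loess, median scaling, quantile normalisation within each age, the blank-spot median subtracted, the authors' table or each age alone. Leaving out 1 sample gave 1 to 3 probes at 5 dpf, 0 to 11 at 30 dpf, 0 for both ages, 0 to 11 for the change with age and 0 to 3 for mutant minus wild-type difference at 5 dpf. Where this left 1 sample in a group, that sample was assumed to vary like the others.

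Values that changed sign at 5 dpf were miR-1 with cyclic loess (0.057) and miR-499 (-0.048) and miR-146a (-0.034) with median scaling. At 30 dpf they were miR-1 in the authors' table (0.34) and with median scaling (0.96) and cyclic loess (0.73), and miR-21 with cyclic loess (0.26) and median scaling (0.50). Over both ages miR-21 was 0.063 with cyclic loess and 0.065 with median scaling. With 1 sample left out, values at 5 dpf ran from -0.49 to 0.22 for miR-1, -1.12 to 0.16 for miR-133a, -1.08 to 0.28 for miR-133b, -0.78 to 1.32 for miR-133c, -0.85 to 0.13 for miR-206, -0.26 to 0.47 for miR-499, -0.32 to 0.57 for miR-146a and -0.19 to 0.56 for miR-146b. At 30 dpf they ran from -0.29 to 0.20 for miR-1, -0.18 to 0.53 for miR-133a, -0.13 to 0.48 for miR-133b and -0.19 to 0.40 for miR-206. The causes were not tested. Median scaling moved the median of all probes to -0.28 at 5 dpf, 0.25 at 30 dpf, 0.11 over both ages and 0.39 for the change with age, and changes with it are relative to that.

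Samples of equal replicate number deviated from their group means with r = 0.15 at 5 dpf and 0.12, -0.03 and -0.08 at 30 dpf. After removal of the dye effect r was 0.08 at 5 dpf and 0.07, -0.43 and -0.11 at 30 dpf. With 2 samples in a group the deviations mirror each other, and dye and replicate number coincide. These values can therefore neither show nor exclude that the numbers pair the samples. The replicate block gave 2 probes at 5 dpf, 0 at 30 dpf (miR-146a at an adjusted p of 0.168), 0 over both ages and 0 for the change with age (miR-430a at 0.0792, miR-430b at 0.101), and it takes up the dye.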
